A study of Mus musculus with 24 samples.

Results

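Interferon-stimulated antiviral genes are described here in mouse macrophages: 44 genes of the IFIT, OAS, MX, PARP and TRIM families and others, taken as a list of gene symbols and matched to 44 of the 56941 gene IDs in the count table. The list was set by gene symbol, with earlier results of these data known, and no measured value enters the rule. The cells were BMDM, macrophages grown in culture from bone marrow, and their RNA was sequenced. There were 3 genotypes: wild type (WT), HDAC9 knockout (KO) and HDAC9 deltaCIS (dCIS), the last a deletion of a cis-regulatory element of the gene for the class IIa histone deacetylase HDAC9. Each genotype was left untreated or was given LPS, the lipopolysaccharide of bacterial walls that TLR4 senses, at 100 ng/ml for 6 hours, which made 6 groups of 4 libraries (24 libraries). The labels name no strain, sex or age, and do not say what sets replicates apart (an animal, a culture or a library preparation), so the spread behind each p-value may be technical.

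These genes code for proteins that block viruses at entry, translation, genome copying and release, and many are switched on in almost any cell type by type I interferon. In macrophages, TLR4 signals through the adaptor TRIF to induce interferon beta, which is secreted and acts back on the cells through the receptor of Ifnar1 and Ifnar2. That receptor activates transcription factors, STAT2 and IRF9 among them, which bind the interferon-stimulated response element (ISRE) in the promoters of these genes.

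Total counts per library ranged from 14636058 to 19181707, and all 44 members passed the filter that left 14757 tested genes. Levels are given as CPM, the count relative to the library's size after TMM scaling, and a gene was called at a Benjamini-Hochberg adjusted p under 0.05 in edgeR's quasi-likelihood test. The TMM factors were 1.29 to 1.36 in untreated and 0.695 to 0.826 in LPS-treated libraries. The same share of raw counts thus gave a higher CPM with LPS, so small LPS changes depend on this scaling. LPS-treated dCIS libraries 3 and 4 had 17628 and 15997 genes with a count, against at least 20458 in each other library. Hdac9, the targeted gene, was at 11.2 ± 1.46 CPM (SD, n = 4) in untreated WT, 1.04 ± 0.218 in KO and 15.6 ± 2.23 in dCIS, a KO-minus-WT log2 fold change of -3.43 (SE 0.25, edgeR adjusted p = 1.38e-09). The summed level of 8 macrophage markers was 15322 to 25980 CPM. The 5 plasmacytoid dendritic cell markers, a cell type known for interferon secretion, summed to at most 2.86 CPM in any library, and with LPS were at 1.37 to 2.86 CPM against 0 to 0.643 CPM untreated. That difference came mostly from Ccr9 and Pacsin1, with 179 and 144 counts over all libraries. Siglech had 11 counts, Ly6d 2 and Klk1 0. Markers of T and NK cells and of erythroid cells summed to at most 0.603 and 0.0496 CPM.

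The ISRE core (GAAA, any 2 bases, GAAA, read on both strands) was looked for in RefSeq promoter windows of GRCm38.p6, 250 bases before to 50 bases after a gene's start. The table held 36 of the 44 members; Ifi27l2a, Mx1, Mx2, Oas2, Parp9, Parp14, Rtp4 and Usp18 had no entry. The core was present in 14 of the 36, 38.9%, against 3.99% of the 27025 genes in the table. The 14 were Bst2, Eif2ak2, Ifit1, Ifit3, Ifitm3, Isg15, Oas1a, Oas1g, Oas3, Phf11b, Rsad2, Trim21, Trim30a and Trim30d. With only the 250 bases before the start, 11 of 36 held it, against 3.46%. The gamma-activated site core, TTC, any 3 bases, GAA, which is its own reverse complement, was in 22.2% of member genes and 9.55% of all, and the NF-kB consensus, on both strands, in 16.7% and 9.55%; overlaps between the motifs were not removed. A match is a description of the letters, not a site of binding.

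Stretches of 6 promoters are shown because they hold the element through which this gene family is known to be controlled, and because the Oas1a and Oas1g pair shows how alike paralogs are. Capitals mark the ISRE core in either orientation, with 40 bases on each side, 5′ to 3′ on the gene's strand.
Ifit1 (chr19:34640745-34640853, plus strand): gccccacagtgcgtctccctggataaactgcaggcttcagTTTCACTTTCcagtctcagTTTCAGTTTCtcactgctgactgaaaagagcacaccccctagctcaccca
Ifit3 (chr19:34583333-34583456, plus strand): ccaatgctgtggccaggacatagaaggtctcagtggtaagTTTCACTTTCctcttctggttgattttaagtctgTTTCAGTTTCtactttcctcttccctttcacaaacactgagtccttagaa
Isg15 (chr4:156200835-156200936, minus strand): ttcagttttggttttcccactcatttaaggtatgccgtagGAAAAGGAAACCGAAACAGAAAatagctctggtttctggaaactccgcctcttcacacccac
Rsad2 (chr12:26456523-26456612, minus strand): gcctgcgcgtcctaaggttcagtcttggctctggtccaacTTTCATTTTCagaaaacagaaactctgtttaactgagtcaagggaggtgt
Oas1a (chr5:120907490-120907585, minus strand): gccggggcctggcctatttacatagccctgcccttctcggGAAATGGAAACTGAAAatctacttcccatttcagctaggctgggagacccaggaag
Oas1g (chr5:120887576-120887671, minus strand): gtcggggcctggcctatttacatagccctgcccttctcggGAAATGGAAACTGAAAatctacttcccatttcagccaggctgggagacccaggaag

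Ifit1 and Ifit3 each held 2 cores, and Isg15 held 3 that overlap into a run beginning 78 bases before the start. In Rsad2 the core began 120 bases before the start. In Oas1a and Oas1g the cores began 20 and 18 bases before it. The 2 windows, shifted by 2 bases and compared without gaps, matched at 69.5% of 298 positions. An inserted or lost base would lower that share. Members with and without a core had like LPS responses in WT: the median log2 fold change was 3.54 over the 14 with it (range 1.69 to 7.98) and 3.55 over the 22 without it (1.93 to 7.78).

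With TMM scaling, all 44 members were called higher with LPS in WT, all 44 in KO and 43 of 44 in dCIS. Of all tested genes, 61.4% were called in either direction in WT, 61.6% in KO and 64.7% in dCIS, and 30.4%, 30.9% and 31.3% were called higher. The median log2 fold change of the members was 3.55 in WT, 3.48 in KO and 3.51 in dCIS, while that of all tested genes was between -0.051 and 0.019. In WT, 8 members had a log2 fold change of 6 or more, 9 of 4 to 6, 23 of 2 to 4 and 4 under 2. The members made up 0.395% to 0.599% of the counts of an untreated library and 4.95% to 5.68% of the counts of an LPS-treated one. In such bulk samples, a change in the number of responding cells and a change in RNA per cell cannot be told apart. The summed level of 4 endothelial markers was also higher with LPS, at 40.4 to 68.4 CPM against 2.93 to 5.79 untreated, mostly from Kdr, and that of 4 B cell markers lower, at 1.91 to 4.43 against 6.68 to 14.7; their part in the result was not tested.

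**Figure D1:**
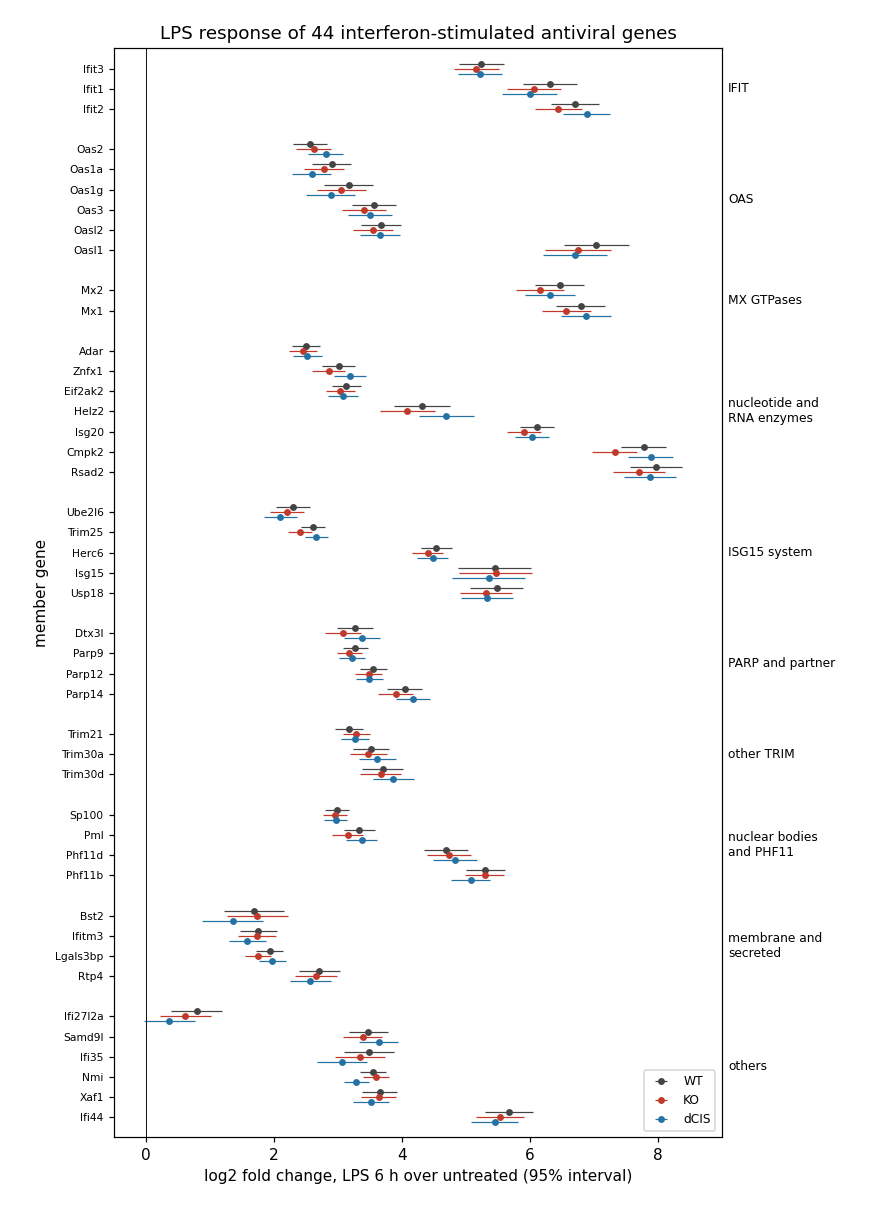
Log2 fold change of each of the 44 members with LPS against untreated, in WT, KO and dCIS, with 95% intervals, grouped by role. Every point lies above 0, from Ifi27l2a (0.36 in dCIS) to Rsad2 (7.98 in WT), and the 3 genotypes lie close together within each gene.

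Of the 3 IFIT members, Ifit1 codes for a protein known to bind RNA that lacks the host's cap methylation and keep it from being translated. Ifit2 moved most of the 3. Its WT libraries held 56.9, 62.7, 52.6 and 86.03 CPM untreated and 6926, 7058, 6042 and 6923 CPM with LPS, a log2 fold change of 6.71 (SE 0.18, edgeR adjusted p = 6.68e-19). Ifit3 moved least of the 3, with a log2 fold change of 5.24 (SE 0.17). Its WT libraries went from 36.9, 38.1, 34.6 and 48.8 to 1529, 1366, 1610.2 and 1479.6 CPM. For each of these genes, every LPS library lay far above every untreated one. Ifit1 rose by 6.32 (SE 0.21). In KO and dCIS the log2 fold changes were 6.07 and 6.00 for Ifit1, 6.44 and 6.89 for Ifit2, and 5.16 and 5.22 for Ifit3.

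The OAS enzymes sense double-stranded RNA and make 2-5A, the second messenger that activates RNase L. The 6 genes of the family spanned a wide range. Oasl1, which lacks that enzymatic activity and is known to restrain translation of Irf7, rose most: 10.2, 10.4, 8.00 and 9.26 CPM in untreated WT libraries and 1218, 1297, 1209 and 1253 with LPS, a log2 fold change of 7.04 (SE 0.25, edgeR adjusted p = 9.99e-17). Oas2 rose least, from 76.4, 61.2, 63.8 and 80.2 to 388, 386, 369 and 518 CPM, a log2 fold change of 2.56 (SE 0.13). The untreated and LPS libraries did not overlap for any of the 6. Oas1a, Oas1g, Oas3 and Oasl2 rose by 2.90, 3.16, 3.56 and 3.67. Oas1a and Oas1g are close paralogs, so the split of reads between them depends on the authors' counting, which also holds for the IFIT genes, Trim30a with Trim30d and Phf11b with Phf11d.

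The MX proteins are dynamin-like GTPases that trap viral components. Mx1 held 43.7, 32.6, 25.7 and 31.3 CPM in untreated WT libraries and 3721, 3746, 3407 and 3936 with LPS, and Mx2 9.33, 6.29, 5.19 and 8.72 and 633, 641, 649.6 and 686. Both were low without LPS and high in all 4 treated libraries, with log2 fold changes of 6.79 (SE 0.19) and 6.46 (SE 0.19). Reads of these related genes can also be split by the counting.

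Among 7 enzymes of nucleotides and RNA, Rsad2 (viperin), which makes a chain-terminating nucleotide, had the highest LPS response of all members in WT: 79.6, 65.4, 57.1 and 79.1 CPM untreated and 18418, 17746, 16905 and 17832 with LPS, a log2 fold change of 7.98 (SE 0.20, edgeR adjusted p = 4.48e-19). Its chromosomal neighbour Cmpk2, a mitochondrial kinase of nucleoside monophosphates, followed with 7.78 (SE 0.17), from 29.7, 26.97, 28.6 and 31.02 to 6477, 6620.2, 6142 and 6303 CPM. Neither gene had an untreated library near any treated one. Adar, which edits adenosine to inosine in double-stranded RNA, rose least, from 79.97, 77.6, 74.1 and 89.9 to 461, 453, 397 and 509.9 CPM, a log2 fold change of 2.50 (SE 0.11). The exonuclease gene Isg20 rose by 6.11, the helicase gene Helz2 by 4.32, Eif2ak2, which codes for the kinase PKR that halts translation, by 3.13, and the RNA helicase gene Znfx1 by 3.01.

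Per kilobase of the longest annotated transcript, the only scale on which members are compared in level, Rsad2 ranked first in LPS-treated WT cells at 4687 ± 165 CPM per kilobase (SD, n = 4). Isg15 and Ifitm3 followed at 2605 ± 275 and 2558 ± 169, a difference smaller than their spread. In untreated WT cells the order was different: Ifitm3 came first at 759 ± 67.1, before Bst2 at 312 ± 30.7 and Lgals3bp at 175 ± 5.55, while Rsad2 ranked 17 at 18.6 ± 2.90 and Mx2 last, 44, at 3.06 ± 0.814.

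Isg15 is a ubiquitin-like protein that is joined to other proteins by Ube2l6 and Herc6 and taken off by Usp18. Usp18, which also blocks signalling at the interferon receptor, rose most of these 5 genes in WT, from 28.7, 28.1, 32.8 and 34.8 to 1347, 1335, 1425 and 1443 CPM, a log2 fold change of 5.48 (SE 0.20, edgeR adjusted p = 7.27e-17). Isg15 rose by 5.45 (SE 0.28). Ube2l6 rose least, from 63.4, 63.4, 62.8 and 59.5 to 313, 312, 298 and 298 CPM, a log2 fold change of 2.29 (SE 0.13), with the groups still apart. The ligase genes Herc6 and Trim25 rose by 4.54 and 2.60.

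The PARP proteins transfer ADP-ribose, and Dtx3l is a ubiquitin ligase that pairs with Parp9. Their 4 genes moved within a narrow band. Parp14 moved most, from 143, 134, 133 and 170.5 to 2578, 2220.0, 2007 and 2769.5 CPM in WT, a log2 fold change of 4.04 (SE 0.13, edgeR adjusted p = 2.96e-18), and Dtx3l least, from 47.7, 46.3, 43.7 and 58.3 to 484, 463, 412 and 532 CPM, 3.27 (SE 0.14). Both pairs of groups were apart. Parp9 and Parp12 rose by 3.27 and 3.55. Dtx3l, Parp9 and Parp14 are neighbours on their chromosome, and without a stated strand setting, reads where such genes overlap cannot be told apart.

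Of the other TRIM genes, Trim30d rose from 25.2, 22.4, 24.7 and 30.7 to 332, 335, 292 and 377 CPM, a log2 fold change of 3.70 (SE 0.15), and Trim21, which codes for an intracellular antibody receptor, from 24.7, 24.7, 23.2 and 28.5 to 242, 200.1, 218 and 248, 3.17 (SE 0.11). Trim30a, a close paralog of Trim30d, rose by 3.51. No untreated library reached a treated one. Among genes of nuclear bodies and the PHF11 family, Phf11b rose most, from 12.4, 14.95, 13.01 and 14.2 to 499.7, 559, 541 and 549 CPM, a log2 fold change of 5.30 (SE 0.15), and Sp100 least, from 112, 124, 116 and 126 to 956, 928, 901 and 1002, 2.99 (SE 0.09). Phf11d and Pml, the organiser of PML nuclear bodies, rose by 4.69 and 3.33.

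The membrane and secreted members rose least of the 10 role groups by their median, with a median log2 fold change of 1.84 over 4 genes in WT. Rtp4 moved most of them, from 83.96, 95.4, 84.9 and 88.4 to 547, 581, 586 and 589.8 CPM, a log2 fold change of 2.71 (SE 0.16). Bst2 (tetherin), which holds budding virions at the cell surface, moved least, from 235, 235, 283 and 234 to 733, 749, 954 and 742, 1.69 (SE 0.23, edgeR adjusted p = 6.72e-07). The groups were apart for both. Ifitm3, which blocks fusion of entering virus, rose by 1.75 (SE 0.14), and the secreted glycoprotein gene Lgals3bp by 1.93 (SE 0.10).

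The remaining 6 members spanned log2 fold changes of 0.79 to 5.67 in WT. Ifi44 rose from 7.66, 10.2, 8.62 and 9.64 to 443, 457, 461 and 483 CPM in WT, a log2 fold change of 5.67 (SE 0.18). Ifi35 and Nmi, which code for binding partners, rose by 3.48 and 3.55, Samd9l, a restriction factor of poxviruses, by 3.47, and Xaf1 by 3.65. Ifi27l2a rose least of all members. Its WT libraries held 41.2, 64.04, 39.2 and 37.8 CPM untreated and 69.1, 108, 73.6 and 63.9 with LPS. In CPM the groups overlapped, since untreated library 2 was just above the lowest treated library. The raw counts were 888, 1375, 822 and 779 untreated and 845, 1389, 939 and 791 with LPS, so the higher CPM came with the TMM scaling. The log2 fold change was 0.79 (SE 0.20, edgeR adjusted p = 0.00107) in WT and 0.61 (SE 0.19, edgeR adjusted p = 0.00828) in KO. In dCIS the libraries held 83.6, 56.5, 103 and 66.1 CPM untreated and 126, 98.98, 94.3 and 76.9 with LPS, and the gene did not pass, at 0.36 (SE 0.19, edgeR adjusted p = 0.109). With the replicate number as a block within genotype, or without dCIS LPS libraries 3 and 4, 44 members passed in dCIS. With transcript length as an offset, an alternative chosen after seeing the data, Ifi27l2a passed neither in KO, at 0.33 (SE 0.17, edgeR adjusted p = 0.0871), nor in dCIS, at 0.35 (SE 0.17, edgeR adjusted p = 0.0629), and 43 members passed in each.

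Most tested genes of a list for the interferon pathway, which also holds inhibitors, were higher with LPS in CPM. Of 46 pathway genes listed beside the members, 38 were tested. In WT 33 rose and 4 fell (Ifngr1, Mavs, Traf3 and Irf3), in KO 34 rose and 4 fell, and in dCIS 34 rose and 3 fell. Of all tested genes, 30.4% were called higher in WT, 30.9% in KO and 31.3% in dCIS. Some of the higher CPM came with the TMM scaling. Raw counts of Tlr4 in WT were 823, 880, 749 and 882 untreated and 659, 692, 638 and 760 with LPS. Those of Ticam1 were 808, 838, 753 and 737 untreated and 744, 696, 661 and 768 with LPS. Ifnb1, interferon beta, was at 0.232, 0, 0.143 and 0.0485 CPM in untreated WT libraries and 3.68, 1.32, 3.45 and 1.86 with LPS, a log2 fold change of 4.51 (SE 0.63, edgeR adjusted p = 2.78e-08). It was low even after LPS, and its KO and dCIS values were 2.13, 1.80, 2.76 and 3.51 and 1.95, 1.89, 0.952 and 1.55 CPM. Of the receptor chains, Ifnar1 rose by 1.25 and Ifnar2 by 1.39. The factors Stat2, Irf9 and Irf7 rose by 3.24, 1.34 and 5.24. Irf7 held 59.5, 56.6, 58.7 and 60.8 CPM untreated and 2108, 2169.9, 2278 and 2358 with LPS in WT. Ifna1, Ifna2, Ifna4, Ifna5, Ifng, Ifnl2, Ifnl3 and Ifnlr1 had too few counts to be tested.

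In untreated cells, 9 members were higher in KO than in WT and 0 were lower, and 36 of 44 had a positive log2 fold change. The background was 5.03% of all tested genes called higher and 7.31% called in either direction. The member median was 0.24 on the log2 scale, against -0.0008 over all tested genes. At an unadjusted p under 0.05 there were 20 members, a count not set against all tested genes. The 9 were Parp14 and Dtx3l, the RNA and nucleotide enzymes Znfx1, Helz2 and Cmpk2, Trim25, Mx2, Pml and Samd9l. All were small differences beside the LPS response of the same genes. The summed level of 5 conventional dendritic cell markers was 11.5 to 26.9 CPM in untreated KO libraries against 8.27 to 13.9 in WT. Nearly all of it was Itgax, at 17.6 ± 7.74 CPM in KO and 10.2 ± 2.60 in WT (SD, n = 4); Flt3, Zbtb46, Xcr1 and Clec9a were each under 1 CPM in every one of these libraries, and Flt3, Xcr1 and Clec9a had no count in some. Their part in the result was not tested.

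**Figure D2:**
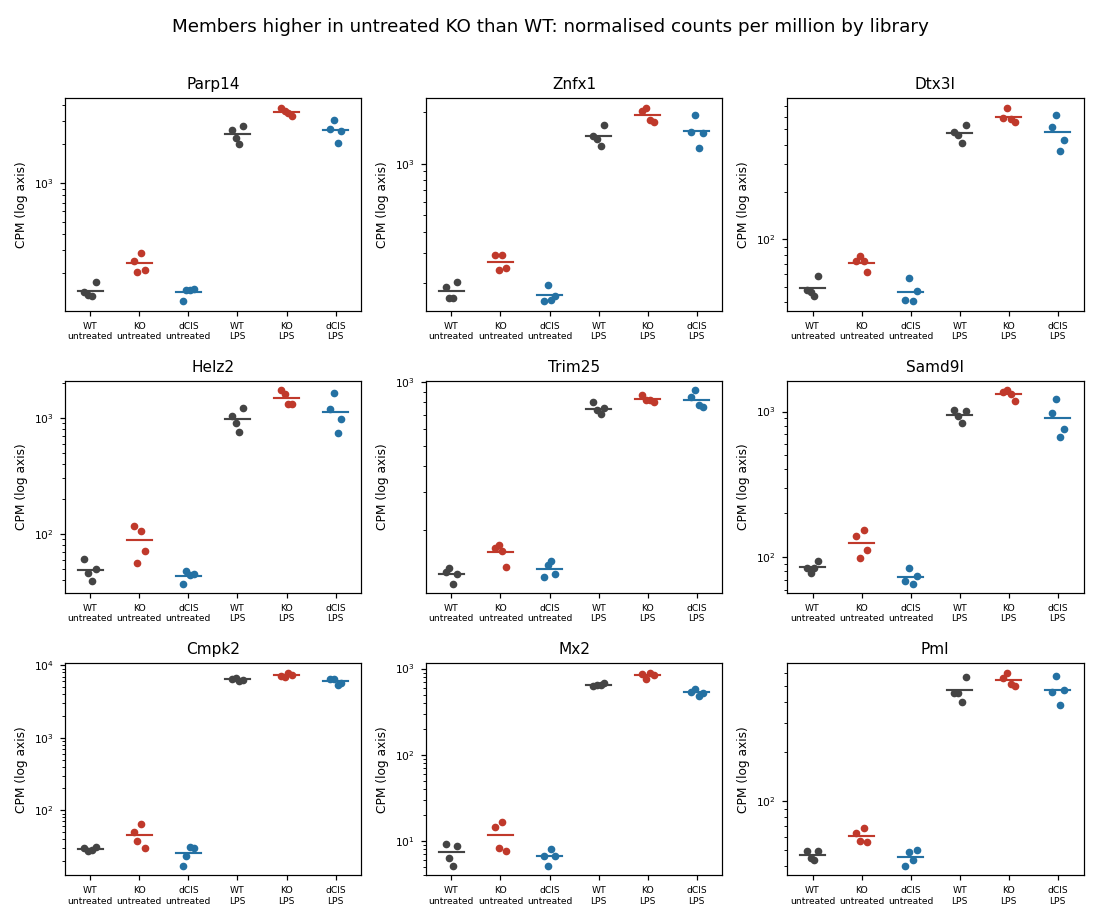
CPM in each library (points) and group mean (lines) of the 9 members called higher in untreated KO than in WT, on log axes. Untreated KO libraries lie above untreated WT libraries for Parp14, Znfx1, Dtx3l, Trim25, Samd9l and Pml, and overlap them for Helz2, Cmpk2 and Mx2; LPS moves every gene much further than genotype does.

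Parp14 had the smallest p of the 9. Untreated KO libraries held 249, 205, 287 and 209 CPM against 143, 134, 133 and 170.5 in WT, a log2 fold change of 0.71 (SE 0.13, edgeR adjusted p = 0.00468). All 4 KO libraries were above all WT libraries. Its neighbour Dtx3l was at 72.8, 77.97, 72.6 and 61.9 against 47.7, 46.3, 43.7 and 58.3 CPM, a log2 fold change of 0.54 (SE 0.14, edgeR adjusted p = 0.0251), again with no overlap. The 2 other PARP members did not pass, at 0.22 for Parp9 and 0.20 for Parp12.

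Znfx1 was at 291, 238, 291 and 245 CPM in KO against 189.6, 163, 165 and 202 in WT, with no overlap and a log2 fold change of 0.56 (SE 0.12, edgeR adjusted p = 0.0133). Helz2 was at 116, 56.5, 106 and 71.5 against 60.7, 46.1, 39.5 and 49.9 CPM, 0.84 (SE 0.21, edgeR adjusted p = 0.0251), and KO library 2 was below WT library 1. Cmpk2 was at 49.5, 38.1, 65.3 and 30.00 against 29.7, 26.97, 28.6 and 31.02 CPM, 0.65 (SE 0.18, edgeR adjusted p = 0.0293), and KO library 4 lay within the WT range. Rsad2, beside Cmpk2 on the chromosome that also carries Hdac9, was at 99.1, 89.5, 140.2 and 60.1 against 79.6, 65.4, 57.1 and 79.1 CPM and did not pass, at 0.47 (SE 0.20, edgeR adjusted p = 0.143).

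Trim25, a ligase that acts on the RNA sensor RIG-I, was at 164, 169, 158 and 134 CPM in KO against 127, 131, 111 and 124 in WT, 0.34 (SE 0.091, edgeR adjusted p = 0.0279), without overlap. Samd9l was at 139.8, 98.99, 155 and 111 against 84.3, 78.1, 84.7 and 94.7 CPM, 0.56 (SE 0.15, edgeR adjusted p = 0.0281), and Pml at 64.3, 57.4, 68.5 and 56.1 against 49.9, 45.2, 43.5 and 49.8, 0.39 (SE 0.12, edgeR adjusted p = 0.047), both without overlap. Mx2 was at 14.6, 8.20, 16.8 and 7.65 against 9.33, 6.29, 5.19 and 8.72 CPM, 0.67 (SE 0.20, edgeR adjusted p = 0.0397), and its KO libraries 2 and 4 lay within the WT range. Over all 44 members, 7 had every KO library above every WT library, against 12.1% of all tested genes, and 1 had every KO library below, against 9.49%.

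The member count moved with single libraries. Leaving out WT library 1, 2 or 3 gave 5, 1 and 1 members, and leaving out KO library 1 or 3 gave 2 each. DESeq2 called 17, the 9 among them. The share of all genes was not counted for these fits. Untreated KO library 3 held the highest value of its group for 35 of 44 members and library 2 the lowest for 23.

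The differences between KO and WT followed transcript length. Over 14527 tested genes with a length, the Spearman correlation between the untreated KO-minus-WT log2 fold change and the longest annotated transcript was 0.551, and over the 44 members 0.726; genes are not independent replicates, and all points share the same 8 libraries. In the fifth of genes with the longest transcripts, over 4656 nucleotides, 19.6% of all tested genes were called higher in KO, against 0.275% in the fifth with the shortest. Of the 9 called members, 6 were among the 9 members in the longest class. The median log2 fold change of members was 0.54 in the longest class and -0.082 in the shortest, against 0.31 and -0.28 over all genes of those classes. With length entered as that offset for each library, 1 member was called, Ifi27l2a at 0.82 (SE 0.17, adjusted p = 0.0123, edgeR), and none of the 9. Parp14 was then at 0.38, with an adjusted p of 0.125 in edgeR, and the member median was 0.21. In that fit 128 genes of all were called, against 1079 without the offset. The part of length in the result was not tested further.

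**Figure D3:**
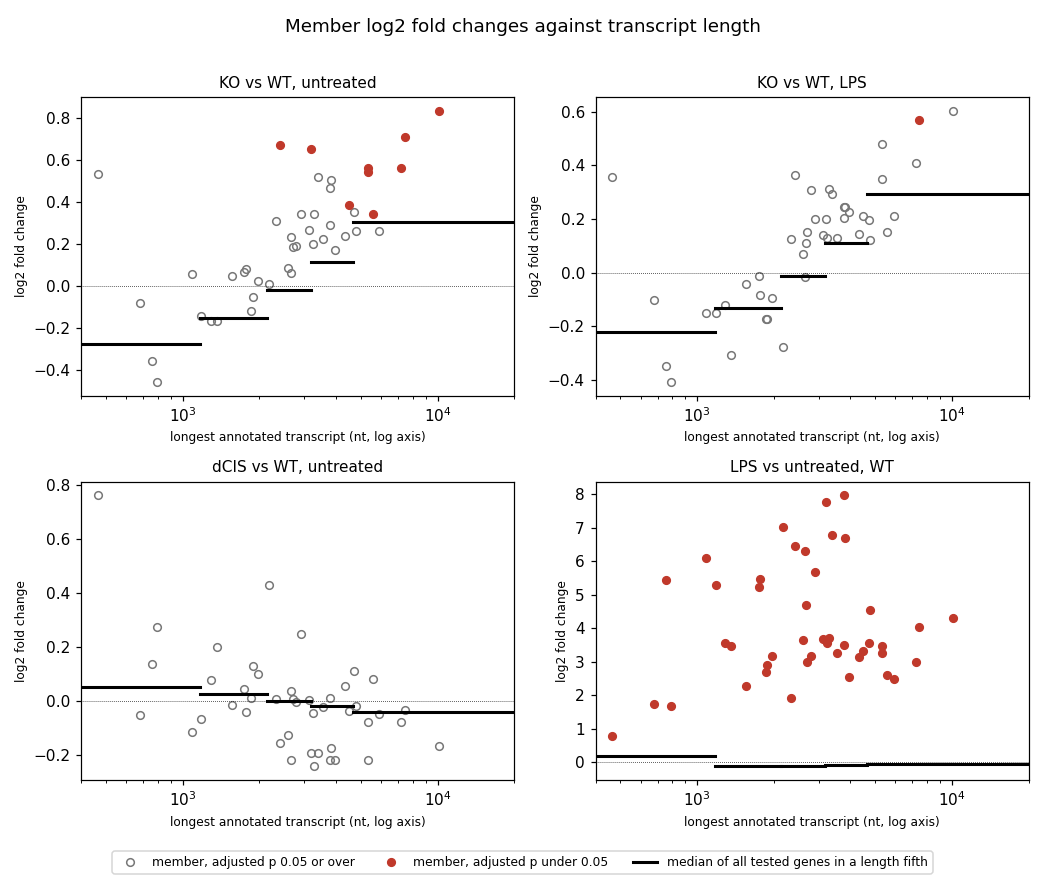
Log2 fold change of each member (circles, filled where called) against the length of its longest annotated transcript, for 4 comparisons, with the median of all tested genes in each of 5 length classes (black lines). In both KO-against-WT panels members and lines climb with length (Spearman correlation 0.726 and 0.724 over the members). In the panel of untreated dCIS against WT the members fall with length (-0.399). In the LPS panel of WT the members show little relation to length (0.0506).

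Ifi27l2a, with 463 nucleotides the shortest member transcript, stood apart from that pattern. Untreated KO libraries held 75.3, 65.7, 58.4 and 64.7 CPM, dCIS libraries 83.6, 56.5, 103 and 66.1 and WT libraries 41.2, 64.04, 39.2 and 37.8. WT library 2 was far above the other 3 WT libraries and reached into both other groups. The KO-minus-WT log2 fold change was 0.54 (SE 0.19, edgeR adjusted p = 0.0848) and the dCIS-minus-WT one 0.76 (SE 0.19, edgeR adjusted p = 0.35); both comparisons share the WT libraries. Like Rsad2, Cmpk2 and Hdac9, the gene lies on mouse chromosome 12.

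After LPS, 1 member, Parp14, was higher in KO than in WT and 0 were lower, against a background of 2.31% called higher and 2.74% called in all. KO libraries held 3804, 3616, 3489 and 3290.2 CPM and WT libraries 2578, 2220.0, 2007 and 2769.5, a log2 fold change of 0.57 (SE 0.13, edgeR adjusted p = 0.0242), with no overlap. Parp14 was the only member called both before and after LPS. The member median was 0.14, and 8 members had an unadjusted p under 0.05, a count not set against all tested genes. In 19 of 44 members every KO library lay above every WT library, against 10.8% of all tested genes, and in 3 every KO library lay below, against 7.43%. The Spearman correlation with transcript length over the members was 0.724. The summed conventional dendritic cell markers were at 10.8 to 28.7 CPM in these KO libraries and 8.57 to 14.5 in WT, again mostly Itgax, at 16.9 ± 8.46 and 10.4 ± 2.66 CPM, and their part in the result was not tested. The call of Parp14 was lost with length as an offset (adjusted p = 0.396, edgeR). It was also lost when any of WT libraries 2 and 3 and KO libraries 1 and 3 was left out (edgeR adjusted p 0.0579 to 0.149). A fit of only these 8 libraries called 11 members, 8 higher and 3 lower, and DESeq2 called 5. The share of all genes was not counted for those fits.

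The summed level of the 44 members was 75101 to 80400.4 CPM in LPS-treated KO libraries, above the 65013 to 70709 CPM of WT and the 60342 to 71119 CPM of dCIS. In untreated cells the ranges overlapped: 3391 to 4656 CPM in KO, 3315 to 3582 in WT and 2960.0 to 4169 in dCIS. In LPS-treated WT libraries, 5 genes (Rsad2, Ifit2, Cmpk2, Mx1 and Ifit1) made up 55.4% of that sum. The sums hold no length offset. Rsad2, Ifit2, Cmpk2 and Mx1 are in the length class of 3189 to 4656 nucleotides and Ifit1 in that of 2142 to 3189. With LPS, the median KO-minus-WT log2 fold change of all tested genes was 0.11 and -0.011 in these classes. The part of length in the summed level was not tested. Mx1 was at 4792, 4347, 4563 and 4469 CPM in KO with LPS against 3721, 3746, 3407 and 3936 in WT, and Rsad2 at 19970.0, 20571, 20276 and 20888 against 18418, 17746, 16905 and 17832. KO libraries were above WT libraries for both genes, but neither passed, with log2 fold changes of 0.30 (SE 0.18, edgeR adjusted p = 0.376) and 0.20 (SE 0.20, edgeR adjusted p = 0.595).

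**Figure D4:**
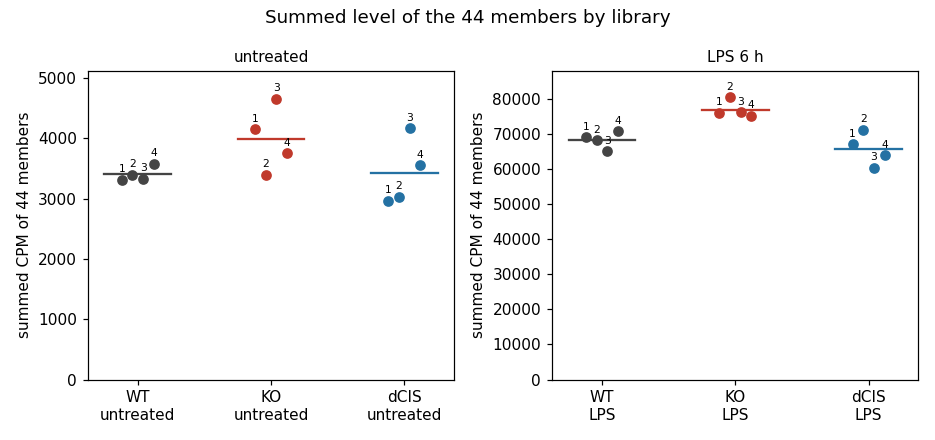
Summed CPM of the 44 members in each library (points, with library number) and the group mean (line), untreated on the left and with LPS on the right, on separate axes from 0. With LPS the 4 KO libraries lie between 75101 and 80400.4 CPM, above the other 8; untreated, KO and dCIS libraries spread more widely than WT.

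No member was called between dCIS and WT. Untreated, edgeR called 0 members, against 0.0542% of all tested genes. At an unadjusted p under 0.05 there was 1, Ifi27l2a, and DESeq2 called 0. With LPS, edgeR called 0 against a background of 0.258%, with 0 at an unadjusted p under 0.05 and 0 by DESeq2. The member medians were -0.021 and -0.068. The 95% intervals of the log2 fold change lay between -1 and 1 for 43 of 44 members untreated and for 44 with LPS, so smaller differences may be present. With LPS, 8 of 44 members had every dCIS library below every WT library, against 4.57% of all tested genes, and none had every one above. Over the members, the Spearman correlation of the dCIS-minus-WT difference with transcript length was -0.399 untreated and 0.456 with LPS. As an example, Isg15 was at 34.98, 22.3, 97.2 and 44.1 CPM in untreated dCIS libraries and 46.6, 42.6, 44.8 and 46.4 in WT: dCIS library 3 was far above the WT range and libraries 1 and 2 were below it. Ifi27l2a was called in untreated dCIS with no filter on low counts and with a replicate block over all groups.

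Set against dCIS in place of WT, untreated KO cells were higher in 16 members and lower in 1, against 12.1% of all genes called higher and 21.3% in either direction; the KO libraries are those of the comparison with WT. The member median was 0.24. The 16 were the 9 members named above for WT and Ifit2, Oas2, Mx1, Adar, Trim30a, Trim30d and Lgals3bp. The 10 smallest p belonged to Parp14, Samd9l, Znfx1, Cmpk2, Helz2, Dtx3l, Mx2, Trim30d, Ifit2 and Mx1.

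Parp14 was at 121, 149, 148 and 150.4 CPM in untreated dCIS libraries, below every KO library, a KO-minus-dCIS log2 fold change of 0.74 (SE 0.13, edgeR adjusted p = 0.00131). Samd9l at 68.5, 84.96, 65.9 and 74.1 CPM, Znfx1 at 157, 196, 160.2 and 169 and Helz2 at 37.3, 48.03, 44.03 and 45.4 in dCIS were also below all KO libraries, by 0.78, 0.64 and 1.00. So was Dtx3l, at 40.99, 57.03, 40.5 and 47.1 CPM in dCIS, a log2 difference of 0.62 (SE 0.14). Groups overlapped for the other 5 of the 10.

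Cmpk2 was at 17.1, 23.4, 31.4 and 29.8 CPM in dCIS, a log2 fold change of 0.84 (SE 0.18), and Mx2 at 6.72, 5.15, 7.98 and 6.70, 0.83 (SE 0.20). Trim30d was at 37.5, 31.4, 38.7 and 23.3 CPM in KO and 18.1, 23.5, 20.7 and 24.7 in dCIS, 0.59 (SE 0.16). Ifit2 was at 88.6, 118, 106 and 53.5 in KO and 42.5, 62.1, 65.7 and 58.5 in dCIS, 0.68 (SE 0.18). In each of these 4 genes KO library 4 lay within the dCIS range. That was also so for Mx1, at 54.7, 40.3, 65.3 and 31.2 in KO and 20.8, 23.9, 38.8 and 33.4 in dCIS, 0.71 (SE 0.19). Bst2 was the 1 member lower in KO, at 168, 115, 219 and 216 CPM against 226, 165, 506 and 297 in dCIS, -0.73 (SE 0.23, edgeR adjusted p = 0.0259); dCIS library 3 was far above the rest.

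In 9 of 44 members every KO library lay above every dCIS library, against 11.0% of all tested genes. Over the members, the Spearman correlation of the difference with transcript length was 0.790. With length as an offset 7 members were called, against 9.26% of all tested genes. All were among the 17: Mx1, Mx2, Cmpk2, Dtx3l, Trim30d, Lgals3bp and Samd9l. A fit of only these 8 libraries called 7 and, with a replicate block, 14. Without KO library 3 or dCIS library 1 there were 11. The share of all genes was not counted for these fits.

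After LPS, Mx2 was the 1 member called between KO and dCIS, against 1.35% of all genes called higher and 2.18% in all. Its libraries held 858, 756, 896 and 851 CPM in KO and 529, 578, 487 and 527 in dCIS, a log2 fold change of 0.66 (SE 0.17, edgeR adjusted p = 0.044), with no overlap, and WT libraries lay between at 633, 641, 649.6 and 686. The call was kept with length as an offset, at 0.69 (SE 0.17, adjusted p = 0.0372, edgeR). It was lost without dCIS libraries 3 and 4 (adjusted p = 0.435) and without any 1 of the 4 KO libraries or dCIS library 1, 3 or 4, while without dCIS library 2 the test called 9 members. In 6 of 44 members every KO library was above every dCIS library, against 5.02% of all genes, and in 1 every KO library was below, against 2.87%.

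The size of the LPS response was also compared between genotypes, and no member was called. The edgeR and DESeq2 fits given here did not pair untreated and treated libraries by their number. For KO minus WT, edgeR called 0 members against a background of 0.0203%, and for dCIS minus WT 0 members against 0%. At an unadjusted p under 0.05 there were 0 and 0, and DESeq2 called 0 and 0. The median differences of the log2 response were -0.12 and -0.059. Over all tested genes, the medians of the transcript length classes ran from -0.025 to 0.046 for KO and from -0.21 to 0.13 for dCIS. Over the members, the Spearman correlation of the difference in response with length was -0.256 for KO and 0.730 for dCIS. Members share the same libraries and moved in step within them, so counts of direction over members are not independent results. For KO, 38 of 44 members had a smaller response than in WT, and the 95% intervals lay between -1 and 1 for 43 members; for dCIS, 27 of 44 were smaller and 42 intervals lay in that range. For Cmpk2 the KO-minus-WT difference was -0.45 (95% interval -0.95 to 0.051).

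Of the 38 tested pathway genes, 3 were higher in untreated KO than in WT and 0 were lower, a share near the 5.03% of all tested genes called higher. Ifnar1, a chain of the interferon receptor, was at 151, 142, 152 and 133 CPM against 121, 92.7, 105 and 107, 0.44 (SE 0.13, edgeR adjusted p = 0.0394). The RNA sensor genes Tlr3 and Ddx58 (RIG-I) were at 11.4, 12.4, 14.5 and 12.8 against 8.82, 8.38, 8.72 and 9.89 CPM, 0.51 (SE 0.13, edgeR adjusted p = 0.0241), and at 90.5, 72.1, 102 and 74.8 against 55.9, 58.03, 58.98 and 74.1, 0.46 (SE 0.13, edgeR adjusted p = 0.0324). The KO and WT libraries overlapped for Ddx58 but not for Ifnar1 or Tlr3. In the other genotype comparison of untreated cells, KO against dCIS, 11 of the 38 were higher and 2 lower, against 12.1% of all tested genes called higher and 21.3% in either direction. The higher ones were Ifnar1 (0.59), Ifngr2 (0.27), Jak1 (0.42), Jak2 (0.38), Tyk2 (0.37), Stat2 (0.44), Irf9 (0.26), Tlr4 (0.52), Ddx58 (0.63), Ifih1 (0.56) and Tlr3 (0.41). Irf3 (-0.30) and Cgas (-0.46) were lower. No pathway gene was called by edgeR between dCIS and WT, where 3 untreated and 5 with LPS had an unadjusted p under 0.05. Those counts were not set against all tested genes.

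**Figure D5:**
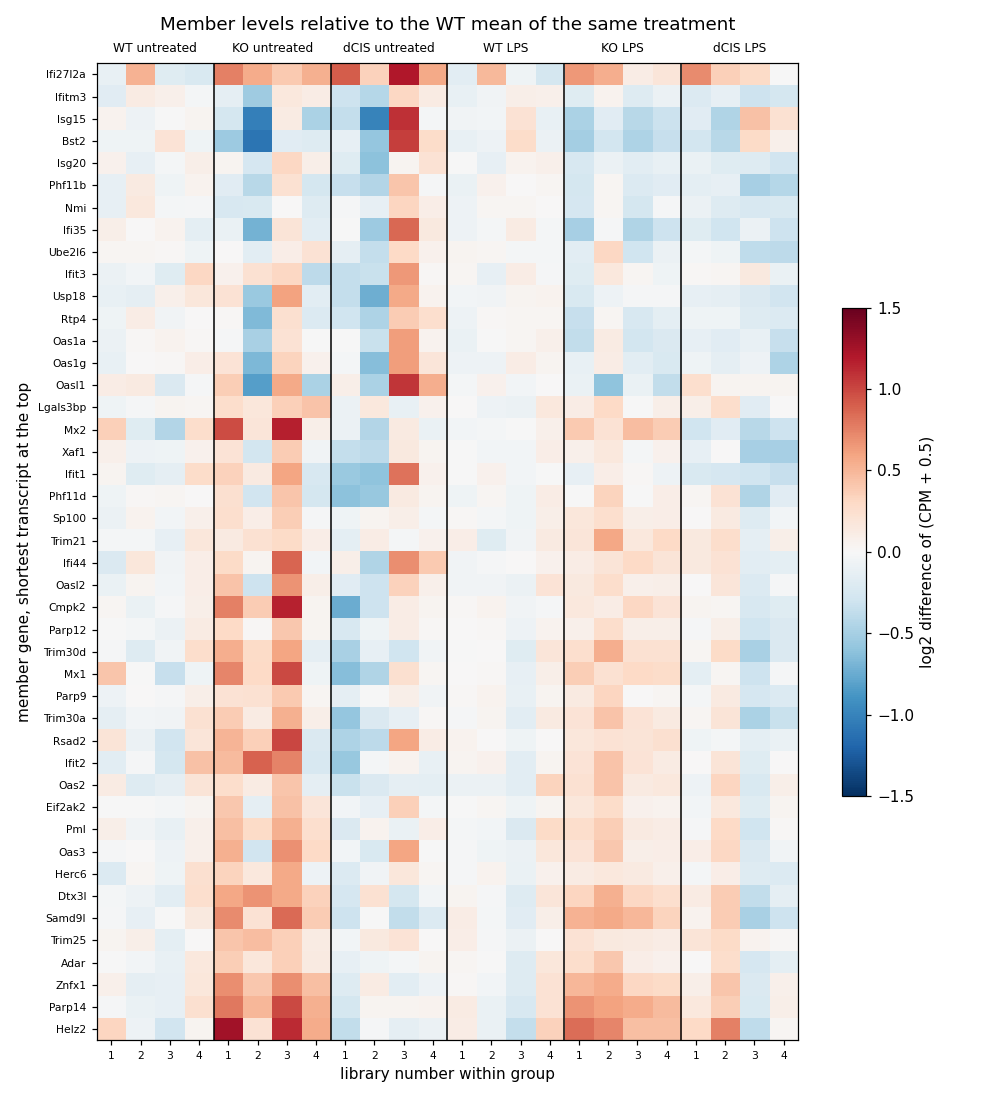
Log2 difference of CPM + 0.5 from the WT mean of the same treatment, for each member (rows, shortest transcript at the top) and library (columns, by group and library number). Untreated KO library 3 and dCIS library 3 are high for most members, short members are low and long members high in the KO libraries with LPS, and Ifi27l2a in the top row is high in most KO and dCIS libraries.

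Libraries of a group differed in step across members. The median coefficient of variation over the 44 members was 8.47% in untreated WT, 20.2% in untreated KO and 19.3% in untreated dCIS, and 6.21%, 9.06% and 12.2% with LPS. Untreated dCIS library 3 held the highest value of its group for 32 members, LPS-treated KO library 2 for 33 and dCIS library 2 for 29, while LPS-treated dCIS library 3 held the lowest for 29. Some of these shifts moved with transcript length and others hardly did. Over the members, the Spearman correlation between length and a library's deviation from its group mean was -0.623 in untreated dCIS library 3, 0.750 in LPS-treated dCIS library 2 and -0.706 in LPS-treated dCIS library 3, but -0.179 in untreated KO library 3 and -0.168 in LPS-treated KO library 2. Over all 24 libraries it ran from -0.872, in LPS-treated WT library 3, to 0.750. The most variable member in untreated KO was Oasl1, at 12.3, 5.10, 14.2 and 6.62 CPM, and in untreated dCIS Isg15, listed above.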

How the data were processed

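The authors deposited raw counts per gene for all 24 libraries in a table of whole numbers, with no normalization. Per the labels' protocols, RNA was captured on oligo-dT beads and the pooled libraries were sequenced as paired-end reads; the submitters' processing notes name STAR, edgeR and the mm39 build, with no version, and the strand setting is not given. Reads carry no stated molecular identifiers, so precision from depth covers counting error only. Library totals of the deposited counts were 14636058 to 19181707, and libraries of a group differed by more than sampling noise (chi-square per degree of freedom 8.11 to 78.5 over 36 pairs), so each counted as 1 replicate.

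Groups came from the labels. Genes were filtered with filterByExpr (minimum count 10), which left 14757, and were fitted in 1 model over the 6 groups with TMM scaling and edgeR 4.0.16's quasi-likelihood test (R 4.3.3, limma 3.58.1); p-values were adjusted over all tested genes by Benjamini-Hochberg, separately for each of 11 comparisons. CPM were computed from the counts. The fit was tested on simulated data. Comparisons of untreated or of treated genotypes share libraries. The 44 members, the role groups and the lists of 46 pathway and 48 marker genes were chosen with earlier results of these data known. Values by library are given for the members with the largest and smallest LPS change of a role group and for members called between genotypes, up to the 10 with the smallest p; other genes and examples shown by library were chosen after their values were seen. Other markers of the lists were at 0.968 to 5.30 CPM in sum (neutrophil) and 0 to 0.659 (fibroblast).

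Alternatives were RLE scaling, 2 other filters, a replicate block, only the groups compared, DESeq2 1.42.0, leaving out libraries and, added after seeing the data, a per-library offset for the length of the longest transcript in GENCODE's mouse annotation of GRCm38, matched by gene ID. Same-numbered untreated and treated libraries deviated together in all 4 pairs of WT (r 0.173 to 0.198) and KO (0.199 to 0.345), and in dCIS r was 0.0471 to 0.415, under 0.1 in 2 of 4 pairs; each of the 12 untreated libraries correlated best with the treated library of its own number. The number is not in the model but is the replicate block among the alternatives. Same-numbered untreated KO and dCIS libraries had r of 0.161 to 0.416; nothing in the labels says what a number shares.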

Additional observations from a re-analysis of the deposited data

Results flagged for a closer look

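In 12 of 276 sets of 4 libraries, 4.35%, 1 library lay far from the other 3 by Dixon's test; chance flags about 1 in 20 groups. Values are CPM. In LPS-treated WT cells, Ifit2 was low in library 3 at 6042 (others 6923 to 7058), Bst2 was high there at 954 (733 to 749), Oas2 and Oasl2 were high in library 4 at 518 (369 to 388) and 1734 (1418 to 1452), and Hdac9 was high in library 2 at 16.5 (10.4 to 11.4). In untreated WT cells, Ube2l6 was low in library 4 at 59.5 (62.8 to 63.4), Bst2 was high in library 3 at 283 (234 to 235) and Ifi27l2a was high in library 2 at 64.0 (37.8 to 41.2). LPS-treated KO library 2 was high for Parp12 at 816 (720 to 722) and Trim30d at 486 (388 to 396). In dCIS, Oasl1 was high in LPS-treated library 1 at 1477 (1280 to 1283), and Parp14 was low in untreated library 1 at 121 (148 to 150.4).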

How the results depend on the processing

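The LPS response of each named gene kept its direction and its side of the threshold in 2547 of 2550 reruns, Ifi27l2a giving the 3 exceptions. With no filter on low counts the median over members was 3.39 in WT and 3.32 in KO. For genotype comparisons of named genes, 593 of 798 reruns kept the call, 196 lost it, 7 gained it and 2 reversed.

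Apart from the length offset, the share of all genes called was not counted for these reruns. Members called, KO against WT untreated, were 17 with DESeq2 and 1 with the length offset. For KO against WT with LPS, members called were 5 with no filter, 3 with a replicate block over all groups, 5 with DESeq2, 11 with only the groups compared and 0 with the length offset. For dCIS against WT untreated, 1 member was called with no filter and 1 with the replicate block. For KO against dCIS untreated, members called were 7 with only the groups compared and 7 with the length offset. For KO against dCIS with LPS, members called were 5 with no filter, 3 with the replicate block and 3 with DESeq2; without dCIS LPS libraries 3 and 4 they were 0, the median over members was 0.075, and for dCIS against WT with LPS it was 0.056. With the length offset, KO against dCIS untreated, Adar turned to -0.015 and Trim25 to -0.038.

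Without each library in turn, members called were 1 to 11 for KO against WT untreated, 0 to 2 with LPS, 11 to 20 for KO against dCIS untreated and 0 to 9 with LPS. Except where fewer libraries or another set of genes entered the fit, the cause was not tested. With 4 libraries a group, the median SE of a member's log2 genotype difference was 0.148 to 0.152, so small differences were not detectable.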
